A study of Homo sapiens with 18 samples.

Results

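Thrombospondin-1 (THBS1) and 9 other genes of the YAP pathway were followed through RNA-seq of 6 ovarian cancer cell lines. The 10 genes are THBS1, CTGF, CYR61, AMOTL1, AMOTL2, AXL, YAP1, WWTR1, TEAD1 and LATS2, and all 10 were found by symbol among the 12853 genes of the deposited table. THBS1 was chosen by its measured log2FC, which was already known to be below -2 in all 3 pairs of a sensitive and a resistant line, so its differences within the pairs are given here as a description without a test. The other 9 were chosen as known members or targets of the pathway, and the question was whether THBS1 was lower alone or together with them.

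The 18 libraries are 3 replicates of each of 6 lines, rRNA-depleted total RNA in every case. A2780 and its derivative CP70, which was made platinum-resistant in vitro, are labelled endometrial/ovarian cancer cells. PEA1 and PEA2 came from 1 patient with high-grade serous ovarian cancer before chemotherapy and after resistant relapse, and PEO1 and PEO4 came from another such patient before and after resistance developed. A2780, PEA1 and PEO1 are labelled sensitive to platinum, CP70, PEA2 and PEO4 resistant, and all were grown in RPMI-1640 with glutamine and fetal bovine serum. The sample labels name no drug given to the cells, although the series as a whole is described as profiled after cisplatinum, so whether any line was exposed shortly before RNA extraction is not given in the sources used here. Each pair is 1 sensitive and 1 resistant line, and the labels do not say whether replicates were separate cultures, so that p-values measure only the spread between these libraries.

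Thrombospondin-1 is a secreted glycoprotein of the extracellular matrix that binds CD47, CD36 and integrins, activates latent TGF-beta and inhibits the growth of blood vessels. YAP (YAP1) and TAZ (WWTR1) are transcriptional co-activators that bind DNA through TEAD factors, and the kinases of the Hippo cascade, among them LATS2, phosphorylate both and keep them out of the nucleus. When the cascade is off, as in spread cells or at low density, YAP and TAZ turn on genes such as CTGF, CYR61, AMOTL2 and AXL, and THBS1 has also been described as a target.

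The reads on listed genes ranged from 1344098 to 7067336 per library, and 3 reads corresponded to between 0.452 and 2.18 CPM. Values are normalized log2 CPM (counts scaled to the library size) with 0.5 reads added, and a log2FC is the resistant minus the sensitive line on this scale. The lowest correlation between replicates of a line was 0.962 and the highest between lines was 0.876 (Pearson, across genes), so no library stood apart from its label. In these bulk samples, fewer cells expressing a gene and less RNA of it per cell cannot be told apart.

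The genes lie at separate places in the genome. On GRCh37, THBS1 (ENSG00000137801) spans chr15:39873280-39891667 on the plus strand, and it was the only one of the 10 whose span overlaps another protein-coding gene, FSIP1 on the opposite strand. CTGF (now CCN2, ENSG00000118523) lies at chr6:132269316-132272512 on the minus strand and CYR61 (now CCN1, ENSG00000142871) at chr1:86046444-86050272 on the plus strand. AXL (ENSG00000167601) lies at chr19:41725128-41767671 and YAP1 (ENSG00000137693) at chr11:101981178-102104155, both on the plus strand. The spans of AMOTL1 (chr11:94439597-94609913) and TEAD1 (chr11:12695968-12966284) are on the plus strand, and those of AMOTL2 (chr3:134074189-134094321), WWTR1 (chr3:149235022-149454501) and LATS2 (chr13:21547175-21635725) on the minus strand. The library kit kept strand, but whether the counting used it is not given in the sources used here, so reads of overlapping genes on the opposite strand may be included in THBS1. The same holds for CTGF, AMOTL1, AXL, YAP1, WWTR1, TEAD1 and LATS2, which noncoding genes overlap on the opposite strand.

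TEAD factors bind the core GGAATG, read as CATTCC on the opposite strand, and the RefSeq promoter windows (GRCh38.p14, 250 bases before to 50 after each start) were searched for it on both strands. Windows were found for 8 of the 10 genes, 11 windows in all, and CYR61 and TEAD1 had no entry. The core was present in 6 of the 11 windows (54.5%), belonging to 6 genes, against 4928 of all 35116 windows (14.0%). The 30 bases around each match are shown because these letters are what TEAD factors are known to recognise, written 5′ to 3′ on the strand of the gene with the core in capitals.
THBS1, chr15:39581021-39581050, plus strand: gaggaatccccaGGAATGcgagcgcccctt
CTGF, distal, chr6:131951524-131951553, minus strand: ttttcagacggaGGAATGctgagtgtcaag
CTGF, proximal, chr6:131951459-131951488, minus strand: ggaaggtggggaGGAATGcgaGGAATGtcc
YAP1, chr11:102110273-102110302, plus strand: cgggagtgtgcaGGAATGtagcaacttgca
LATS2, chr13:21061560-21061589, minus strand: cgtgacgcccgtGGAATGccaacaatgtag
AMOTL2, chr3:134374499-134374528, minus strand: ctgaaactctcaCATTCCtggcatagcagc
AXL, chr19:41226531-41226560, plus strand: cagactttgcacCATTCCactccctccgct

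The core of THBS1 began 46 bases before its start site. CTGF held 3 cores in its window, at 169, 104 and 95 bases before the start, and the proximal pair shared 1 stretch. In AMOTL2 and AXL the match was in the second of their windows and in the reverse orientation, and in LATS2 it began 10 bases after the start. A match is a description of letters and not a bound site. THBS1 and CTGF thus both carried the core close to the start, and their expression in the lines is compared in what follows.

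THBS1 was lower in every library of the resistant line than in any library of its sensitive counterpart, in all 3 pairs. In the A2780 pair its expression was 8.45, 8.45 and 8.37 log2 CPM in the A2780 libraries and 3.67, 3.40 and 3.87 in CP70, on 738 to 1359 and 44 to 77 reads. In the PEA pair it was 11.62, 11.50 and 11.52 in PEA1 and 8.53, 8.50 and 8.35 in PEA2. In the PEO pair it was 8.69, 8.76 and 8.87 in PEO1 and 6.44, 6.37 and 6.85 in PEO4. These levels correspond to 27.5-fold, 8.48-fold and 4.68-fold lower expression in CP70, PEA2 and PEO4. Of all genes, 25.9%, 30.8% and 29.8% were lower in the resistant line without overlap in the A2780, PEA and PEO pairs.

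The 3 differences were large among genes but not extreme. Of all 12853 genes, 138 had a lower log2FC than THBS1 in CP70, 417 in PEA2 and 353 in PEO4. Across the lines THBS1 descended from PEA1 through PEO1, PEA2, A2780 and PEO4 to CP70, and only the neighbours PEA2 and A2780 had overlapping values. The resistant PEA2 therefore held about as much THBS1 RNA as the sensitive A2780. Per kilobase of transcript, THBS1 ranked first of the 10 genes in PEA1, with 8.58 log2 CPM per kb, and last in CP70, with 0.68.

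**Figure D1:**
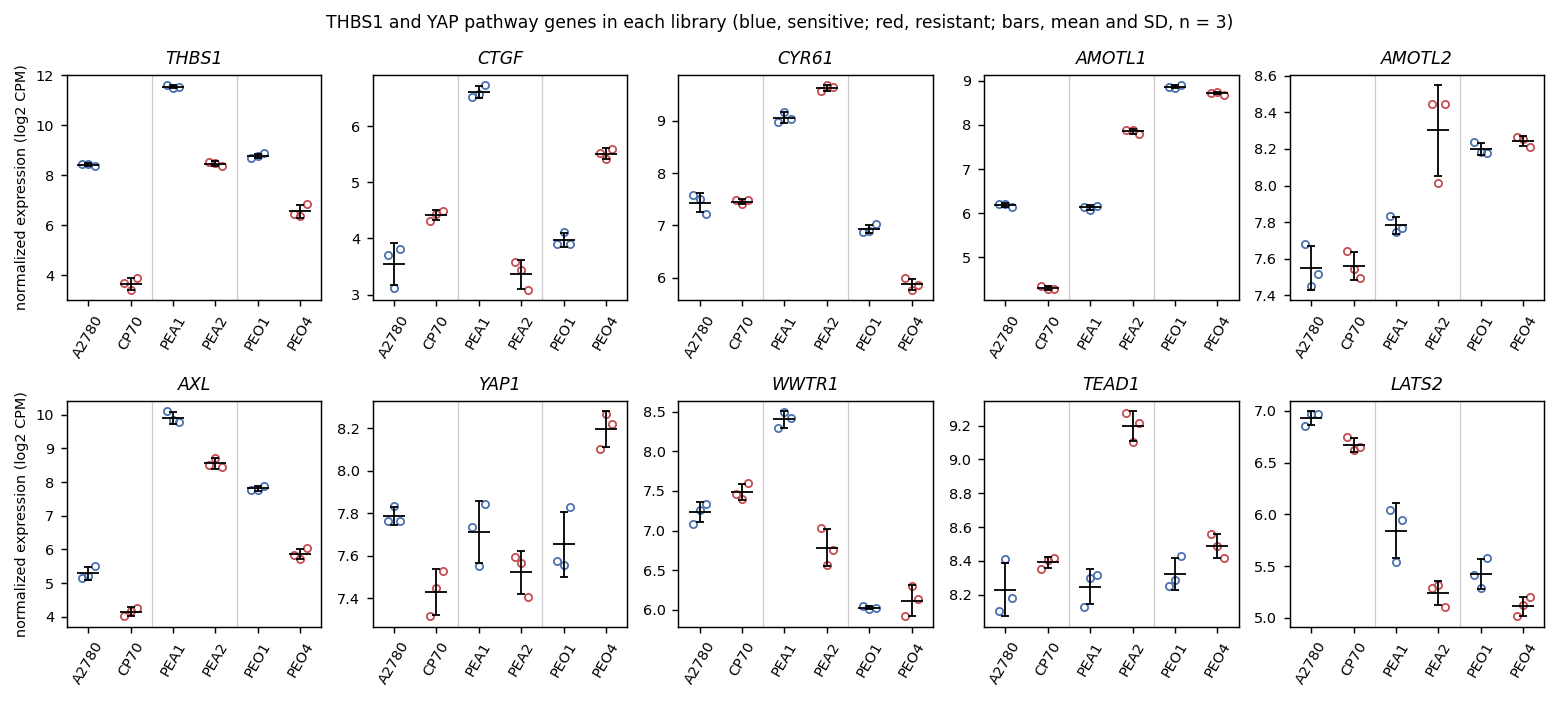
Expression (log2 CPM, with a separate vertical scale for each gene) of THBS1 and the other 9 genes in each library of the 6 lines, with points for libraries and bars for the mean and SD (n = 3); blue is sensitive and red is resistant. THBS1, AXL and, by less, LATS2 are lower in the resistant line of each pair without overlap, whereas CTGF is higher in CP70 and PEO4 and lower in PEA2.

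AXL, a receptor tyrosine kinase for the ligand GAS6, fell in all 3 resistant lines at an FDR below 0.05, and it was the only one of the other 9 genes to do so. It was at 5.16, 5.21 and 5.52 log2 CPM in A2780 and at 4.01, 4.18 and 4.27 in CP70. It was at 10.11, 9.84 and 9.78 in PEA1 against 8.50, 8.73 and 8.43 in PEA2. It was at 7.77, 7.77 and 7.89 in PEO1 against 5.82, 5.72 and 6.04 in PEO4. The libraries of the lines did not overlap in any pair, nor did any of the 6 lines overlap its neighbour in the order PEA1, PEA2, PEO1, PEO4, A2780 and CP70.

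AXL was 2.20-fold lower in CP70 (log2FC = -1.14, standard error 0.12, FDR = 1.65e-07, limma), 2.56-fold lower in PEA2 (log2FC = -1.36, FDR = 7.90e-09, limma) and 3.85-fold lower in PEO4 (log2FC = -1.95, FDR = 1.82e-10, limma). Its direction was that of THBS1, but none of these passed |log2FC| above 2, the size used for a call. The decrease of AXL was larger in the PEO pair than in the A2780 pair by 0.81 on the log2 scale (FDR = 0.000619, limma interaction) and than in the PEA pair by 0.59 (FDR = 0.00595). Between the A2780 and PEA pairs the log2FC differed by 0.22 (standard error 0.17), which did not pass the test (FDR = 0.292). Without PEO4 replicate 3, the log2FC of AXL in the PEO pair was -2.04, past the size for a call. Of all genes, 1.21% fell in all 3 pairs at an FDR below 0.05, and 0.241% did so with a log2FC below -1 in each, as AXL did.

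CTGF and CYR61 are secreted matricellular proteins of the CCN family and the targets most often used to read YAP activity. They did not move together with THBS1, nor with each other. Of the 9 genes tested, CTGF was the one called in any pair, and its direction was opposite between pairs. It was at 3.70, 3.11 and 3.82 log2 CPM in A2780 against 4.31, 4.44 and 4.49 in CP70, and at 3.89, 4.12 and 3.91 in PEO1 against 5.53, 5.41 and 5.60 in PEO4. In the PEA pair it went the other way, with 6.52, 6.57 and 6.74 in PEA1 and 3.59, 3.43 and 3.08 in PEA2, on 126 to 185 and 18 to 37 reads.

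CTGF thus rose 1.83-fold in CP70 (log2FC = 0.87, standard error 0.18, FDR = 0.000729, limma) and 2.91-fold in PEO4 (log2FC = 1.54, FDR = 1.27e-06, limma), and fell 9.48-fold in PEA2 (log2FC = -3.24, FDR = 1.20e-11, limma). Its PEA and PEO log2FC differed by 4.79 on the log2 scale (FDR = 1.40e-11, limma interaction). Per kilobase CTGF ranked last of the 10 genes in A2780, PEA2 and PEO1, at 2.32, 2.14 and 2.75 log2 CPM per kb, and at rank 7, 6 and 6 in CP70, PEA1 and PEO4.

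CYR61 had yet another combination of directions. Its values were 7.58, 7.51 and 7.22 log2 CPM in A2780 and 7.48, 7.40 and 7.48 in CP70, which overlap (log2FC = 0.02, FDR = 0.906, limma). In PEA1 they were 8.98, 9.18 and 9.03 and in PEA2 9.57, 9.68 and 9.65, a rise of 1.49-fold (log2FC = 0.57, standard error 0.09, FDR = 2.78e-05). In PEO1 they were 6.88, 6.89 and 7.02 and in PEO4 5.99, 5.77 and 5.86, a 2.08-fold decrease (log2FC = -1.06, FDR = 2.43e-08). So the CCN pair changed in opposite directions in both serous pairs, with CYR61 up where CTGF was down in PEA2 and the reverse in PEO4. Over the 6 line means the correlation of CTGF with CYR61 was -0.06. CYR61 had the most RNA per kilobase of the 10 genes in A2780, CP70 and PEA2, with 6.25, 6.27 and 8.45 log2 CPM per kb.

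AMOTL1 and AMOTL2 encode motin scaffold proteins that hold YAP at cell junctions, and AMOTL2 is itself a YAP target. AMOTL1 stood at 6.20, 6.21 and 6.15 log2 CPM in A2780 and at 4.36, 4.29 and 4.27 in CP70, a 3.68-fold decrease (log2FC = -1.88, standard error 0.07, FDR = 4.56e-14, limma). It stood at 6.15, 6.07 and 6.17 in PEA1 and at 7.88, 7.88 and 7.79 in PEA2, a rise of 3.30-fold (log2FC = 1.72, FDR = 2.13e-13). The gene that fell in the in vitro pair therefore rose in the PEA pair by nearly as much. In PEO1 it stood at 8.85, 8.84 and 8.91 and in PEO4 at 8.73, 8.76 and 8.69, apart by a log2FC of -0.14 that did not pass the test (FDR = 0.136).

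AMOTL2 varied less, with line means between 7.55 and 8.30 log2 CPM. It rose in PEA2 (8.45, 8.01 and 8.44, against 7.84, 7.75 and 7.77 in PEA1) by 0.52 on the log2 scale (FDR = 0.000157, limma, standard error 0.10). Its libraries overlapped in the other pairs, with a log2FC of 0.01 for CP70 and 0.04 for PEO4. The line means of AMOTL1 and AMOTL2 were correlated over the 6 lines (r = 0.90, Spearman 0.60), although AMOTL1 fell in CP70 and AMOTL2 did not. THBS1 followed neither closely (r = 0.33 and 0.19).

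The regulators YAP1, WWTR1, TEAD1 and LATS2 were expressed in every line, and none passed |log2FC| above 2 in any pair. YAP1 was at 7.77, 7.84 and 7.76 log2 CPM in A2780 against 7.31, 7.45 and 7.53 in CP70, a decrease of 0.36 on the log2 scale (log2FC = -0.36, standard error 0.10, FDR = 0.00558, limma). In PEO4 it rose by a log2FC of 0.54 (FDR = 0.000134), from 7.57, 7.56 and 7.83 in PEO1 to 8.10, 8.27 and 8.22. In the PEA pair its libraries overlapped (log2FC = -0.19, FDR = 0.0955). That YAP1 value passed the test under other scalings of the PEA libraries (log2FC = -0.36, FDR = 0.00272 with quantile normalization, and log2FC = -0.43, FDR = 0.000506 without scaling of the library size), and also without PEA1 replicate 2 (log2FC = -0.27, FDR = 0.0303).

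WWTR1, which encodes TAZ, fell in PEA2. It was at 8.29, 8.50 and 8.43 log2 CPM in PEA1 and at 7.03, 6.56 and 6.76 in PEA2, 3.08-fold lower (log2FC = -1.62, standard error 0.12, FDR = 3.71e-10, limma). Its log2FC was 0.26 for CP70 (FDR = 0.0870) and 0.09 for PEO4 (FDR = 0.579). The CP70 value passed when that pair was fitted alone (FDR = 0.0370) and with voom weights (FDR = 0.0416). PEA2 was thus the line in which both WWTR1 and CTGF were lower.

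TEAD1, the DNA-binding partner, rose in PEA2 from 8.13, 8.30 and 8.32 log2 CPM in PEA1 to 9.28, 9.10 and 9.22, or 1.93-fold (log2FC = 0.95, standard error 0.09, FDR = 1.73e-08, limma). Its log2FC was 0.16 in both other pairs, with overlapping libraries, although in the A2780 pair it passed the test with quantile normalization (FDR = 0.0236) and without A2780 replicate 2 (FDR = 0.0331).

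LATS2, the kinase that restrains YAP and TAZ, fell in PEA2 (log2FC = -0.60, standard error 0.12, FDR = 0.000312, limma), from 6.04, 5.54 and 5.95 log2 CPM in PEA1 to 5.29, 5.32 and 5.11. In the PEO pair it went from 5.41, 5.29 and 5.58 to 5.02, 5.12 and 5.20 (log2FC = -0.32, FDR = 0.0488), and in the A2780 pair from 6.85, 6.97 and 6.97 to 6.75, 6.62 and 6.65 (log2FC = -0.26, FDR = 0.111). Its libraries did not overlap in any pair, and its log2FC did not differ between pairs beyond the spread (FDR = 0.161, limma interaction). The PEO value lay at the threshold: it failed in 11 of the 18 fits that each left out 1 library (any library of the A2780 pair or of PEO4, and PEO1 replicate 1 or 3), with the largest FDR, 0.190, without PEO1 replicate 3. It also failed in 6 fits that kept every library: that pair alone (FDR = 0.0533), quantile normalization (0.0699), the replicate block (0.0549), no trend (0.0619), 2 reads added (0.0514) and no scaling of the library size (0.0624). The A2780 value passed when that pair was fitted alone (FDR = 0.0251) and with voom weights (FDR = 0.0298).

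**Figure D2:**
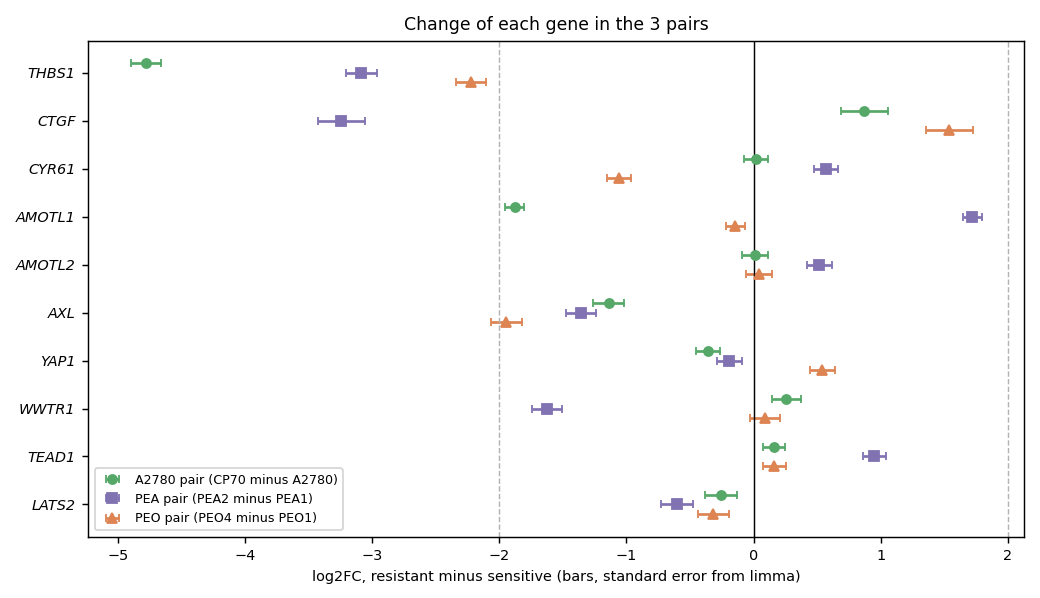
Log2FC (resistant minus sensitive, horizontal axis) of the 10 genes in the A2780, PEA and PEO pairs, with bars for the standard error from limma and dashed lines at -2 and 2. THBS1 lies left of -2 in all 3 pairs, and AXL and LATS2 lie left of 0 in all 3, although LATS2 did not pass the test in the A2780 pair. CTGF, AMOTL1, CYR61 and YAP1 have points on both sides of 0 that passed the test.

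Counted together, the 9 genes other than THBS1 did not move in 1 direction. They pool targets of YAP with its partners and restrainers, so a shared change of the pathway need not move all of them the same way. In CP70, 1 rose, 3 fell and 5 did not pass an FDR of 0.05, where 39.9% of all genes passed it, 22.2% upward and 17.7% downward. In PEA2, 4 rose, 4 fell and 1 did not pass, where 61.9% of all genes passed, 32.5% upward and 29.4% downward. In PEO4, 2 rose, 3 fell and 4 did not pass, where 41.5% of all genes passed, 19.6% upward and 21.9% downward. The medians of their log2FC were 0.01, -0.19 and 0.04, beside -0.02, 0.01 and -0.02 for all genes. Past |log2FC| above 2 as well, 0 of the 9 were called in CP70 (background 9.06%), 1 in PEA2 (CTGF, background 14.1%) and 0 in PEO4 (background 6.22%).

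The direction held across pairs for 1 of the 9, AXL, which fell in all 3, and 0 rose in all 3, where 1.21% and 1.59% of all genes did. With voom weights LATS2 also fell in all 3, making 2 of the 9. The genes that passed in both directions numbered 4 (CTGF, CYR61, AMOTL1 and YAP1), where 27.5% of all genes did. The change differed between the pairs in 8 of the 9 genes (limma interaction, background 75.3%), with LATS2 the exception. For AMOTL2 that difference (FDR = 0.00479) was lost with quantile normalization (FDR = 0.180) and without scaling of the library size (FDR = 0.285), and for LATS2 it was gained (FDR = 0.0294 and 0.00479).

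Over the 6 line means, AXL had the pattern most like that of THBS1 among the 9, with r = 0.87 (Spearman 0.89). The others were CYR61 at 0.48, AMOTL1 at 0.33, CTGF at 0.31, WWTR1 at 0.29, AMOTL2 at 0.19, YAP1 at 0.12, TEAD1 at -0.07 and LATS2 at -0.27. That of YAP1 turned to -0.0288 with quantile normalization, and by Spearman those of CTGF and WWTR1 dropped to 0.09 and 0.03. The 6 lines are 3 related pairs and share their libraries between genes, so these are descriptions without a p.

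**Figure D3:**
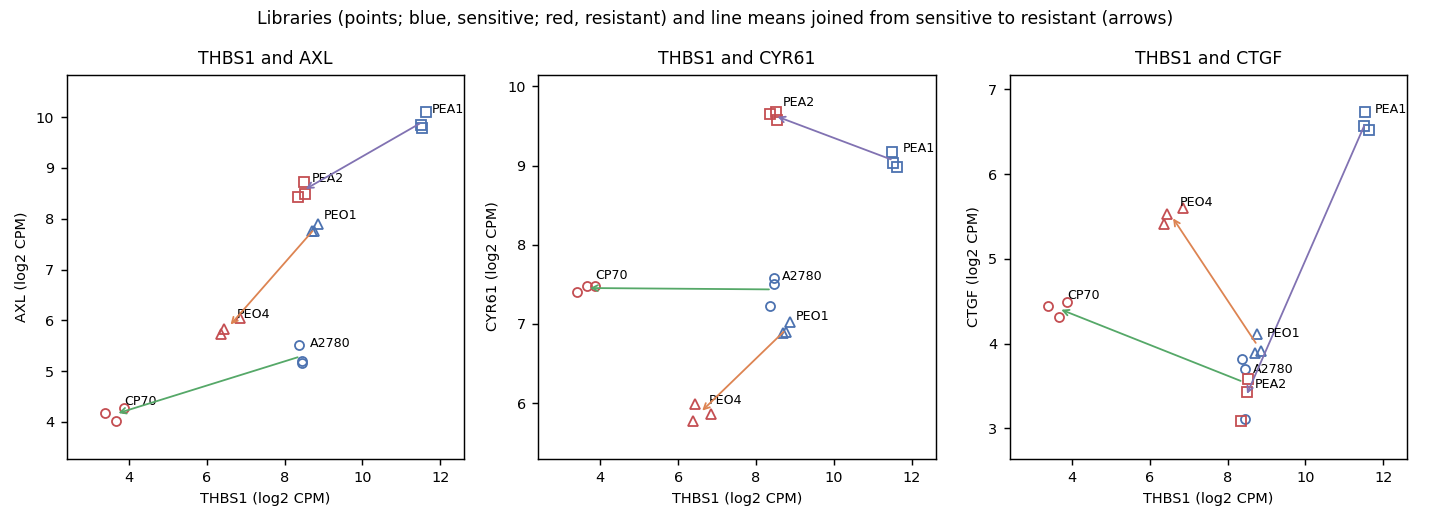
Log2 CPM of AXL, CYR61 and CTGF (vertical axes) against that of THBS1 (horizontal axes) in the 18 libraries, blue for sensitive and red for resistant, with arrows from the mean of the sensitive to that of the resistant line. All 3 arrows point down and left for AXL, whereas for CYR61 and CTGF they point left in every pair but differ in whether they go up or down.

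Among 3357 genes with a mean above 3 log2 CPM and line means more than 2 apart, those most like THBS1 over the 18 libraries by Pearson correlation were FRMD4A (r = 0.942), NUAK1 (0.929), ZNF608 (0.918), AMIGO2 (0.913) and VANGL2 (0.912). Their Spearman correlations with THBS1 were 0.78, 0.75, 0.96, 0.77 and 0.62, beside 0.83 for AXL. FRMD4A, which encodes a scaffold protein of epithelial polarity, had line means of 6.56 in A2780, -1.62 in CP70, 8.26 in PEA1, 5.02 in PEA2, 3.96 in PEO1 and 2.74 in PEO4. NUAK1 encodes a kinase related to AMPK and VANGL2 a planar cell polarity protein. In CP70 the line means of NUAK1, ZNF608 and VANGL2 were low, at 0.67, -0.14 and 0.42 log2 CPM. Unlike THBS1, VANGL2 had a higher mean in PEO4 than in PEO1 (4.33 against 4.11). By Pearson correlation AXL came at rank 18 of the 3357 genes, CYR61 at rank 609 and CTGF at rank 1087. The line means of AMOTL2, YAP1, TEAD1 and LATS2 were less than 2 apart, so 5 of the 9 genes were ranked. None of the 5 genes closest to THBS1 by this measure was among them.

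Wider lists of the pathway were then read in the same fit. Of a signature of 17 YAP/TAZ target genes, 16 were in the table, and the expression of FOXF2 is not analysed here, only its promoter window. Of the 16, 9 rose and 4 fell in CP70, 6 rose and 7 fell in PEA2, and 1 rose and 9 fell in PEO4. Among all genes, 22.2% rose and 17.7% fell in CP70, 32.5% and 29.4% in PEA2, and 19.6% and 21.9% in PEO4. The median log2FC of the signature was 0.73, -0.29 and -0.53 in these lines, beside -0.02, 0.01 and -0.02 for all genes. More of its genes thus rose than fell in CP70 and more fell than rose in PEO4, whereas THBS1 was lower in both.

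Several signature genes moved far, in directions that differed between pairs. ANKRD1, a nuclear protein used as a YAP target in many cell types, rose 10.7-fold in CP70 (log2FC = 3.42, FDR = 2.52e-08, limma) and 50.6-fold in PEA2 (log2FC = 5.66, FDR = 9.56e-12), and fell 8.05-fold in PEO4 (log2FC = -3.01, FDR = 2.41e-07). It had 5 to 9 reads in A2780 and 2 to 5 in PEO4, so the CP70 and PEO4 folds rest on few reads. The log2FC of MYOF, a membrane repair protein, was 3.49 for CP70 (FDR = 3.60e-18), 1.25 for PEA2 (FDR = 3.22e-11) and -0.04 for PEO4 (FDR = 0.735). F3, tissue factor, rose in PEA2 (log2FC = 7.23, FDR = 5.39e-13) from 2 to 7 reads in PEA1. NUAK2 fell in CP70 (log2FC = -2.49, FDR = 7.51e-07) and PEO4 (log2FC = -3.84, FDR = 2.95e-09). IGFBP3 had at most 1 read in A2780 and 1058 to 1800 in CP70, at least 291-fold higher against 3 reads. It was named after its values were seen.

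Of the 12 signature windows, 5 carry the TEAD core (41.7%), against 14.0% of all windows. They are those of ANKRD1, TGFB2, NUAK2, PTPN14 and FOXF2, whereas the window of CCDC80 holds none. The sites of ANKRD1 and TGFB2 are printed, picked by how these genes moved. ANKRD1 moved opposite to THBS1 in CP70 and PEA2, and TGFB2 was lower in every resistant line.
ANKRD1, distal, chr10:90921290-90921319, minus strand: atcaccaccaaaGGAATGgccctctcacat
ANKRD1, proximal, chr10:90921198-90921227, minus strand: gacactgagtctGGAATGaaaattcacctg
TGFB2, chr1:218345139-218345168, plus strand: tgtcagggcgcaCATTCCacctccttcctc

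Of the 16 signature genes, CCDC80, TGFB2 and FJX1 fell in all 3 pairs, as did 1.21% of all genes. CCDC80, a matrix protein, had a log2FC of -2.25, -3.85 and -2.57. Like that of THBS1, its log2FC was already known from these data to be below -2 in all 3 pairs. Its place in this count was thus fixed in advance, and its values are a description without a test. TGFB2, a TGF-beta ligand, changed by a log2FC of -1.91 in CP70 (FDR = 0.000239, limma) and -2.91 in PEA2 (FDR = 8.20e-07), and in PEO4 it had at most 1 read, at least 3.06-fold lower than PEO1. FJX1, a secreted kinase-like protein, had a log2FC of -1.02, -0.46 and -0.50 (FDR = 0.000140, 0.0350 and 0.0349, limma). The PEA value of FJX1 failed without PEA1 replicate 1, PEA2 replicate 1 or PEA2 replicate 2 (largest FDR = 0.154), and also with the PEA pair fitted alone (FDR = 0.0922) and with voom weights (FDR = 0.0586). The PEO value, whose libraries overlap, failed without PEO1 replicate 2 or 3 or PEO4 replicate 1 or 2 (largest FDR = 0.134). TGFB2 and FJX1 were named after their values were seen.

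Of 20 genes of the Hippo cascade and TEAD partners in the table (DCHS1 is not analysed here), 3 rose and 3 fell in CP70, 8 rose and 4 fell in PEA2, and 3 rose and 9 fell in PEO4. Those past the FDR were 6, 12 and 12 of the 20, where 39.9%, 61.9% and 41.5% of all genes passed, and the median log2FC of the list was -0.02, 0.20 and -0.35. SAV1, the scaffold of the Hippo kinases, had a log2FC of 2.92 in the PEA pair (FDR = 2.20e-14, limma) and fell in CP70 and PEO4 (log2FC = -0.58 and -1.14, FDR = 0.000165 and 4.73e-08). FAT4, a giant cadherin, fell in PEA2 (log2FC = -5.49, FDR = 2.98e-10), where it had 1 to 4 reads. In PEO4 it rose (log2FC = 1.92, FDR = 0.000492), on 12 to 22 reads against 2 to 14 in PEO1. VGLL3, a TEAD cofactor, fell in CP70 (log2FC = -3.46, FDR = 1.64e-08) and was at least 33.2-fold higher in PEA2 than in PEA1, where it had at most 1 read.

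AMOT, the third motin, was the one gene of this list to fall in all 3 pairs, named after its values were seen. Its log2FC was -1.61 (FDR = 8.64e-05, limma), -1.11 (FDR = 0.00168) and -0.95 (FDR = 0.00885). Neither AMOTL1 nor AMOTL2 shared that pattern.

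Thrombospondins and their receptors were counted next, 12 of 14 in the table (COMP and THBS4 are not analysed here). In CP70 8 rose and 2 fell, in PEA2 4 rose and 4 fell, and in PEO4 6 rose and 3 fell, with a median log2FC of 0.72, -0.31 and 0.39. Those past the FDR were 10, 8 and 9 of the 12, beside 39.9%, 61.9% and 41.5% of all genes. THBS2 rose in PEA2 (log2FC = 2.87, FDR = 0.000110, limma), where THBS1 was lower, from 2 to 6 reads in PEA1. THBS3, named after its values were seen, fell in PEO4 (log2FC = -0.90, FDR = 0.00967), and its log2FC was 0.64 for CP70 (FDR = 0.0598) and -0.43 for PEA2 (FDR = 0.168). SDC4, a heparan sulfate proteoglycan that binds thrombospondin, was the one gene of the wider lists to rise in all 3 pairs (log2FC = 0.80, 2.69 and 0.67, FDR = 4.17e-05, 1.04e-12 and 0.000298). ITGB3, a subunit of integrin receptors of THBS1, fell in PEA2 (log2FC = -6.17, FDR = 3.25e-08), where it had 5 to 6 reads. CD36 had at most 1 read in A2780 and was at least 10.2-fold higher in CP70. It was named after its values were seen.

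Among the CCN family and the receptors of the TAM family with their ligands, to which AXL belongs, 5 of 8 genes were in the table (WISP1, WISP2 and WISP3 are not analysed here). GAS6, the ligand of AXL, rose in PEA2 (log2FC = 2.67, FDR = 8.97e-09, limma), where AXL fell. NOV, a CCN protein, also rose in PEA2 (log2FC = 3.38, FDR = 2.72e-07), from 1 to 4 reads in PEA1. Of the 5, 2 rose and 1 fell in CP70, 3 rose and 2 fell in PEA2, and 1 rose and 2 fell in PEO4. Those past the FDR were 3, 5 and 3 of the 5, beside 39.9%, 61.9% and 41.5% of all genes. For CP70 1 of the 5 passed with quantile normalization, and also without A2780 replicate 2, A2780 replicate 3 or CP70 replicate 1, and for PEO4 1 passed without PEO1 replicate 3.

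**Figure D4:**
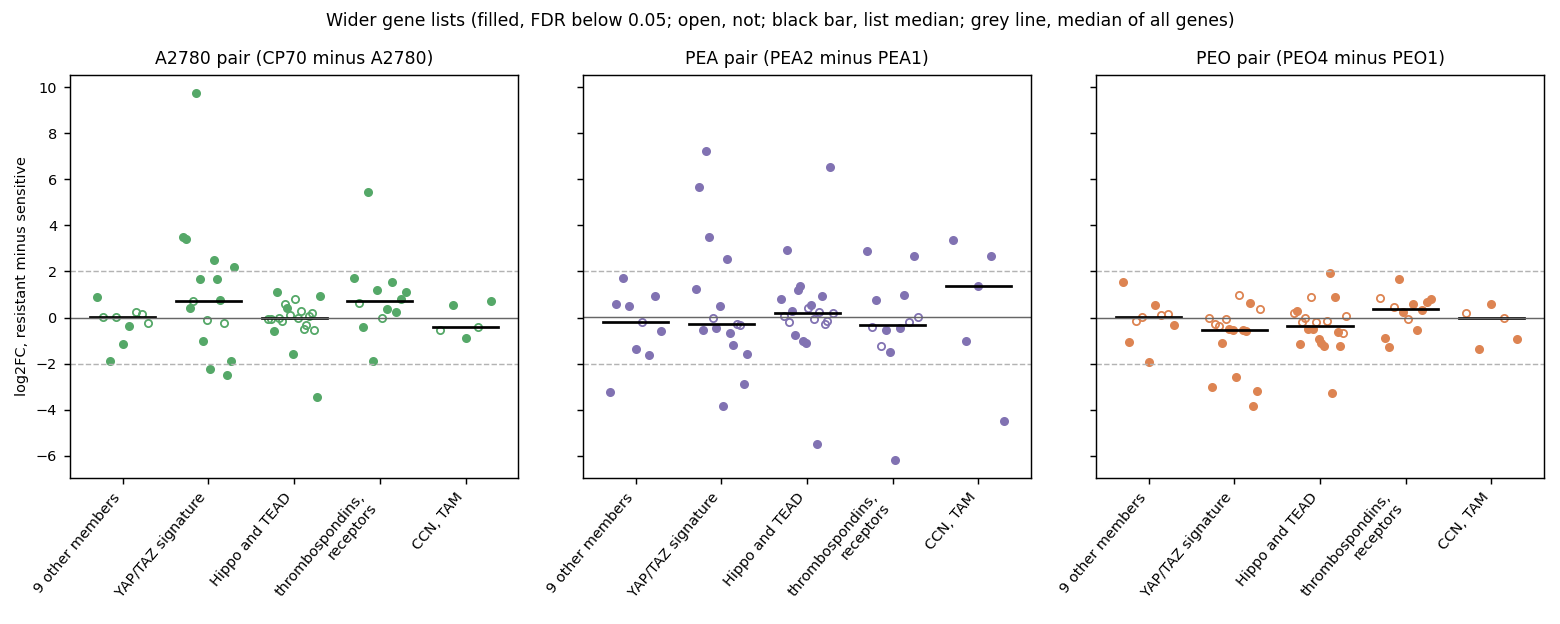
Log2FC (resistant minus sensitive, vertical axis) of the 9 genes other than THBS1 and of the 4 wider lists in the 3 pairs, filled where the FDR was below 0.05, with a black bar at the median of the list and a grey line at that of all genes. The signature's median is 0.73 for CP70 and -0.53 for PEO4, and the points furthest from 0 include genes with 3 reads or fewer in a line, whose fitted size depends on the 0.5 reads added.

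Of the 53 genes of the 4 lists, 22 rose and 10 fell in CP70, 21 rose and 17 fell in PEA2, and 11 rose and 23 fell in PEO4, where 22.2% of all genes rose and 17.7% fell, 32.5% and 29.4%, and 19.6% and 21.9%. Those that fell in all 3 pairs numbered 4 (1.21% of all genes did) and those that rose in all 3 numbered 1 (1.59%), while 20 passed in both directions (27.5%). The 4 that fell include CCDC80, whose decrease in each pair was known in advance. The change differed between the pairs in 45 of the 53 (background 75.3%). Called genes with a line at 3 reads or fewer made up 3 of 9, 2 of 15 and 2 of 5 in the A2780, PEA and PEO pairs.

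Markers of cell types were read beside these changes, since the pairs also differed in them. The summed level of 9 epithelial markers was 1.68 to 2.84 CPM in the A2780 libraries, where PAX8, WT1, CDH1, KRT7 and MSLN were at 0, and 90.3 to 96.3 CPM in CP70. It was 431 to 589 CPM in PEA1 against 3637 to 3873 in PEA2, and 6626 to 7659 in PEO1 against 4808 to 6399 in PEO4. Of the 9, 3 rose in CP70 (EPCAM, KRT8 and KRT18) and 7 in PEA2 (all but PAX8 and WT1), with 0 lower, whereas in PEO4 KRT7 fell (log2FC = -2.44, FDR = 0.000291, limma), WT1 and EPCAM rose (log2FC = 1.44 and 0.46, FDR = 0.00243 and 0.0402) and 6 did not pass. The sum of 5 of 6 fibroblast markers (COL1A1, COL1A2, COL3A1, DCN and LUM) was 366 to 447 CPM in PEA1 and 3.45 to 6.40 in PEA2, but it was higher in CP70 (869 to 1009) than in A2780 (510 to 720) and higher in PEO4 (77.5 to 84.1) than in PEO1 (3.26 to 7.39). Of these 5, COL1A1 fell in PEA2 (log2FC = -6.67, FDR = 9.02e-12, limma), COL1A2 rose there on at most 5 reads (FDR = 0.00748), and COL3A1, DCN and LUM were at 0 in both PEA lines. In CP70, COL1A2, DCN and LUM rose, and in PEO4, COL1A2 and COL3A1 rose, while the others did not pass. The 1 endothelial marker (CDH5) and the 1 leukocyte marker (PTPRC) in the table were near 0 outside PEA2, where they reached 25.3 to 36.1 and 20.1 to 25.1 CPM. The part of these differences in the changes of THBS1 and the pathway genes was not tested.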

How the data were processed

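RNA of 18 libraries was sequenced. Per the submitters' processing notes, the tools were Bowtie2, featureCounts and limma on hg19, and normalization was by limma. The values deposited by the authors are log2 CPM of 12853 genes after addition of 0.5 reads. Whole reads were recovered from 100% of the values (tolerance 0.05 reads) and gave the depth and the genes at the floor of 3 reads, which cover counting error only.

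Differences were fitted to the deposited values in R 4.3.3 with limma 3.58.1 (a mean for each of the 6 lines, moderated statistics with a trend, Benjamini-Hochberg over 12853 genes). A gene rose or fell at an FDR below 0.05 and was called at |log2FC| above 2 as well. Differences between pairs were tested with the F-test of the interaction. The calculations were tested on simulated data.

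The 10 genes and the wider lists were chosen with earlier results of these data known. Named genes of each list were up to 3 with the largest |log2FC| in each pair among called genes with more than 3 reads in a library of each line, with CCDC80 and the 5 genes most like THBS1. Exceptions are stated. Gene spans came from GENCODE on GRCh37, which matched 12642 identifiers and did not match 211, and promoter windows from RefSeq on GRCh38.p14. Alternatives were separate fits for each pair, a filter at a mean log2 value above 0 (355 genes removed), quantile normalization, the replicate block, no trend, |log2FC| above 1, 2 reads added, voom weights, Spearman correlation, leaving out each library and, chosen after seeing the data, no scaling of the library size.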

Additional observations from a re-analysis of the deposited data

Results flagged for a closer look

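The change from the sensitive to the resistant line differed between the 3 pairs in the genes listed below, each by the F-test of the interaction over all genes (limma FDR, 75.3% of all genes below 0.05). Among the pathway genes these were CTGF (6.96e-12), which fell in PEA2 and rose in CP70 and PEO4, AMOTL1 (2.24e-15), which fell in CP70 and rose in PEA2, and CYR61 (6.37e-09), which rose in PEA2 and fell in PEO4. YAP1 (1.65e-05) fell in CP70 and rose in PEO4. WWTR1 (5.52e-09), TEAD1 (1.14e-05) and AMOTL2 (0.00479) moved mainly in PEA2, and AXL (0.000845) fell in each pair by different amounts.

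In the YAP/TAZ signature the FDR was 3.44e-15 for MYOF, 6.01e-12 for ANKRD1, 4.51e-11 for F3, 4.78e-17 for IGFBP3, 0.000247 for CCDC80, 0.0276 for NT5E and 1.18e-06 for NUAK2. CCDC80 fell in all 3 pairs, most in PEA2, whereas ANKRD1 rose in CP70 and PEA2 and fell in PEO4. Among the Hippo genes it was 2.29e-14 for SAV1, 1.62e-09 for FAT4, 2.10e-05 for TEAD2 and 6.31e-13 for VGLL3. Among the thrombospondins and receptors it was 0.00313 for THBS3, 1.42e-06 for CD36, 1.96e-06 for ITGB3 and 6.98e-09 for SDC4, which rose in all 3 pairs. Among the CCN and TAM genes it was 5.58e-06 for NOV, 1.60e-07 for GAS6 and 1.10e-09 for PROS1. IGFBP3, NT5E, TEAD2, CD36 and PROS1 were examined after their values were seen, since a line of at least 1 pair held 3 reads or fewer. Other genes of the wider lists were mostly named for a large log2FC in a pair, which favours a difference between pairs. The number of genes listed is therefore not set against the share of all genes. The cause of these differences between pairs was not tested.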

How the results depend on the processing

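With |log2FC| above 1 in place of 2, the genes called among the 9 other than THBS1 numbered 2 for CP70, 4 for PEA2 and 3 for PEO4, in place of 0, 1 and 0, and those called in the 4 wider lists numbered 20, 24 and 14, in place of 9, 15 and 5. Of all genes, 19.2%, 33.6% and 18.8% were called above 1 and 9.06%, 14.1% and 6.22% above 2. With voom weights, 2 of the 9 genes fell in all 3 pairs in place of 1, since LATS2 joined AXL. With quantile normalization the correlation of YAP1 with THBS1 turned to -0.0288. Of the counts over the 9 genes and over the 4 lists together, the other 125 under alternatives that kept every library stayed within 1.5 times those reported. Apart from |log2FC| above 1, counts of single lists moved further in 3 cases among fits that kept every library: with quantile normalization the CCN and TAM genes past the FDR for CP70 went from 3 to 1 and the Hippo genes called for PEO4 from 1 to 2, and with the filter on low values the thrombospondin genes called for CP70 went from 1 to 0. The thrombospondin genes called for CP70 numbered 2 without A2780 replicate 2 or 3. The Hippo genes called for PEO4 numbered 2 without PEO1 replicate 1 or 3 or PEO4 replicate 3. When each library was left out in turn, the genes called among the 9 in the PEO pair numbered 0 to 1, the 1 being AXL without PEO4 replicate 3, and those past the FDR 4 to 5, 8 to 9 and 4 to 5 in the A2780, PEA and PEO pairs. Without scaling of the library size the median log2FC of all genes in the PEA pair was -0.24, so changes of that size there depend on the scaling. The log2FC of THBS1 in the PEA pair was -3.38 with quantile normalization and -3.33 without scaling of the library size, in place of -3.08. In the PEO pair it stayed between -2.37 and -2.13 when each library was left out.

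Same-numbered replicates of a pair did not deviate together (mean r = 0.0185, 0.000648 and 0.00478), so the numbers do not pair the samples. With the replicate block, 4, 8 and 4 of the 9 genes passed the FDR in place of 4, 8 and 5, 0, 1 and 0 were called, and 1 fell in all 3 pairs. In the wider lists 32, 38 and 34 passed with the block.

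Depth limited PEA1 most, at 1344098 reads in its shallowest library, and genes at 3 reads or fewer have only a bound for their fold.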

Other observations

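NF2, which encodes merlin, an activator of the Hippo cascade at the cell membrane, had 416 to 641 reads in A2780, 1000 to 1553 in CP70, 313 to 413 in PEA1 and 828 to 2066 in PEA2, but 0 to 1 reads in PEO1 and 0 to 3 in PEO4. It belongs to the Hippo list and was singled out after its values were seen. Both lines of the PEO pair were at the floor, so no fold is given within that pair. What these reads say of the NF2 gene itself was not tested.

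VGLL1, a TEAD cofactor, had the reverse pattern and was above the floor in the PEO lines alone, with line means of 5.99 log2 CPM in PEO1 and 4.75 in PEO4. It was also singled out after its values were seen.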
